A study of Mus musculus with 8 samples.

Results

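C-type lectin receptors are membrane proteins built on the fold of sugar-binding lectins, and myeloid cells use them to recognise fungi, mycobacteria, dying cells and the body's own glycoproteins. The rule took every row whose symbol begins with Clec and a digit or with Cd209 and a letter, together with Cd207, Mrc1, Mrc2, Mgl2, Ly75, Cd302 and Colec12. It found 48 of the 34432 genes in the table, without use of any measured value. Of these, 20 passed the filter for testing, a normalized read count of at least 10 in at least 4 libraries.

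The cells were untreated mouse macrophages grown from bone marrow and taken on day 7 of differentiation, in 2 groups of 4 libraries of polyadenylated RNA. In the double knockout, Cdk8 was floxed (Cdk8 flox/flox) and removed by a Cre recombinase under the Vav promoter (Vav-iCre), and Cdk19 was null. Control cells are labelled VAV-cre, so both groups carry a Vav-driven recombinase. The Vav promoter is active in blood-forming cells and their progeny. Both kinases are exchangeable subunits of Mediator, the complex between transcription factors and RNA polymerase. The labels state no strain, age, number of mice or kind of Cdk19 null allele.

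Some of these receptors signal through the kinase Syk, either from a tyrosine motif of their own tail or from the adaptors Fcer1g and Tyrobp, and lead by way of Card9 to NF-kB. Others carry inhibitory tyrosine motifs that recruit phosphatases such as Ptpn6. Members of the mannose receptor group mainly take up cargo. In the mouse, many of the genes lie in clusters on chromosome 6.

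Normalized read counts summed to between 19363042 and 20893998 per library, and the receptors took 0.184% to 0.191% of that sum in double knockouts and 0.172% to 0.179% in controls. Cdk19 stood at 373 ± 25.8 in double knockouts and 1452 ± 189 in controls (SD, n = 4 each; the exact two-sided permutation p of 0.0286 is the lowest possible with 8 libraries). Cdk8 reads were largely retained, at 347 ± 60.8 in double knockouts and 439 ± 24.5 in controls (exact two-sided permutation p = 0.0571; limma log2 -0.35, adjusted p = 0.0374, a call lost under 14 of 20 alternatives). A gene total also counts exons that Cre does not remove, so it cannot check the deletion. For comparison with the marker counts that follow, 46.6% of all 11675 genes tested passed the limma test at an adjusted p under 0.05. The share was 22.9% higher and 23.8% lower in double knockouts. All 12 macrophage markers were measured and passed the filter, 7 of them higher and 5 lower in double knockouts. Their summed level was 351709.9 to 375378 in double knockouts and 391795 to 425559.7 in controls. Lyz2, the gene of lysozyme, sets that difference, since the other 11 summed to 258603 to 276110.2 in double knockouts and 239583 to 256095 in controls. Division markers were lower for 6 of 6, summing to 2781 to 2975 in double knockouts and 19539 to 21992 in controls. Of 9 monocyte markers 0 rose and 5 fell. The 9 summed to 1785 to 2954 in double knockouts and 6357 to 6714 in controls. Of 12 neutrophil markers 10 passed the filter, of which 0 rose and 8 fell. All 12 summed to 1059 to 1314 in double knockouts and 2434 to 4031 in controls. The part of these shifts in the receptor differences was not tested. In RNA from whole cultures, fewer cells of a type and less RNA per cell cannot be told apart.

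The promoters of 5 receptors are shown because these genes carry the main contrasts: Clec7a and Clec5a are activating receptors that differed in opposite directions, Clec4d and Clec4e are neighbours that did so as well, and Cd207 had the largest fold difference. Each is the 250 bases before the gene's start in RefSeq (build GRCm38.p6), written 5′ to 3′ along the gene's own strand. Gene positions given further on are GENCODE's, in which Clec5a starts earlier, so that the last 16 bases of its window lie inside that gene model. For the other 4 the window ends at most 4 bases before the GENCODE gene. Capitals mark matches, on either strand, to GAGGAA, the core bound by PU.1 and other ETS factors, to TTGCNNAA of the C/EBP family, or to TGANTCA of the AP-1 family.
Clec7a, chr6:129472780-129473029, minus strand: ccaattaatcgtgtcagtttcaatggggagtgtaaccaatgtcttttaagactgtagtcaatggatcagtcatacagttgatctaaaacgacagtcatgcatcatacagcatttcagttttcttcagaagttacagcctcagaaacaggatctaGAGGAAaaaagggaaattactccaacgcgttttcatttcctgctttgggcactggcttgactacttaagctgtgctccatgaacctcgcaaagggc
Clec5a, chr6:40585806-40586055, minus strand: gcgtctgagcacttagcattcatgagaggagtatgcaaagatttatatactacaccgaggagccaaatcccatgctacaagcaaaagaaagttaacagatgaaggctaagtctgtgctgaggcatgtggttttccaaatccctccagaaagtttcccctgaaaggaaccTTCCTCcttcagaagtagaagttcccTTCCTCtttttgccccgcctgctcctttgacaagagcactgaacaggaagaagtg
Clec4d, chr6:123261857-123262106, plus strand: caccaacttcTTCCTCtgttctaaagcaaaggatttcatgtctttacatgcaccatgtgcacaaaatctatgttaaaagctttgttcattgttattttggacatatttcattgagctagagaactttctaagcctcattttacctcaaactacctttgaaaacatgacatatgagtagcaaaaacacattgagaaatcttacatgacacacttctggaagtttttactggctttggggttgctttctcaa
Clec4e, chr6:123289872-123290121, minus strand: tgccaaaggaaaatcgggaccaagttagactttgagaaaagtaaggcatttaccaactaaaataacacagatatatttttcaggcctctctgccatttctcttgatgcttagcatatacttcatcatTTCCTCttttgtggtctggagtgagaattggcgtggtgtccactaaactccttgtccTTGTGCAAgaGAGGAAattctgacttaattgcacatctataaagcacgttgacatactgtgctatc
Cd207, chr6:83677858-83678107, minus strand: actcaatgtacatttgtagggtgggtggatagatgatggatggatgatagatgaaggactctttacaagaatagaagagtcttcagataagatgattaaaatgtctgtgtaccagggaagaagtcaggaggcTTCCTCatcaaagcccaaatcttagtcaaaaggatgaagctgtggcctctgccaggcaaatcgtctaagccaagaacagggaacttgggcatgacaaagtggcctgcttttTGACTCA
GAGGAA was found in all 5 windows, with 2 matches each for Clec5a and Clec4e. Among 27025 promoters of the same length, 23.1% hold it, as do 10 of the 17 tested receptors with a promoter in the table. TTGCNNAA was found in the Clec4e window and in none of the other 4. It is in 9.55% of all promoters and in 5 of the 17. TGANTCA stands in the Cd207 window, directly before the start, and is in 6.87% of all promoters and in 2 of the 17. No matches overlap in these windows. Matches are a description of the letters and show no binding.

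Receptor expression differed between the genotypes in both directions. In double knockouts 9 of the 20 tested receptors were higher, 7 were lower and 4 did not pass the test (limma, Benjamini-Hochberg adjusted p under 0.05 over all genes tested). Over all 11675 genes tested, 46.6% passed, 22.9% higher and 23.8% lower. At least 2-fold differences were found for 10 of the 20, 4 higher and 6 lower, where 10.9% of all tested genes had such a difference. The groups did not overlap for 16 of the 20, and for 42.9% of all tested genes. The median log2 fold change, double knockout over control, was 0.30 for the tested receptors and 0.01 for all tested genes, and the median size of change without its sign was 0.95 and 0.31. Of the 20, 18 reached a value of 10 in libraries of both groups. Clec1b reached it in double knockouts only and Cd207 in controls only, so the filter admitted them through the group in which they are high.

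**Figure D1:**
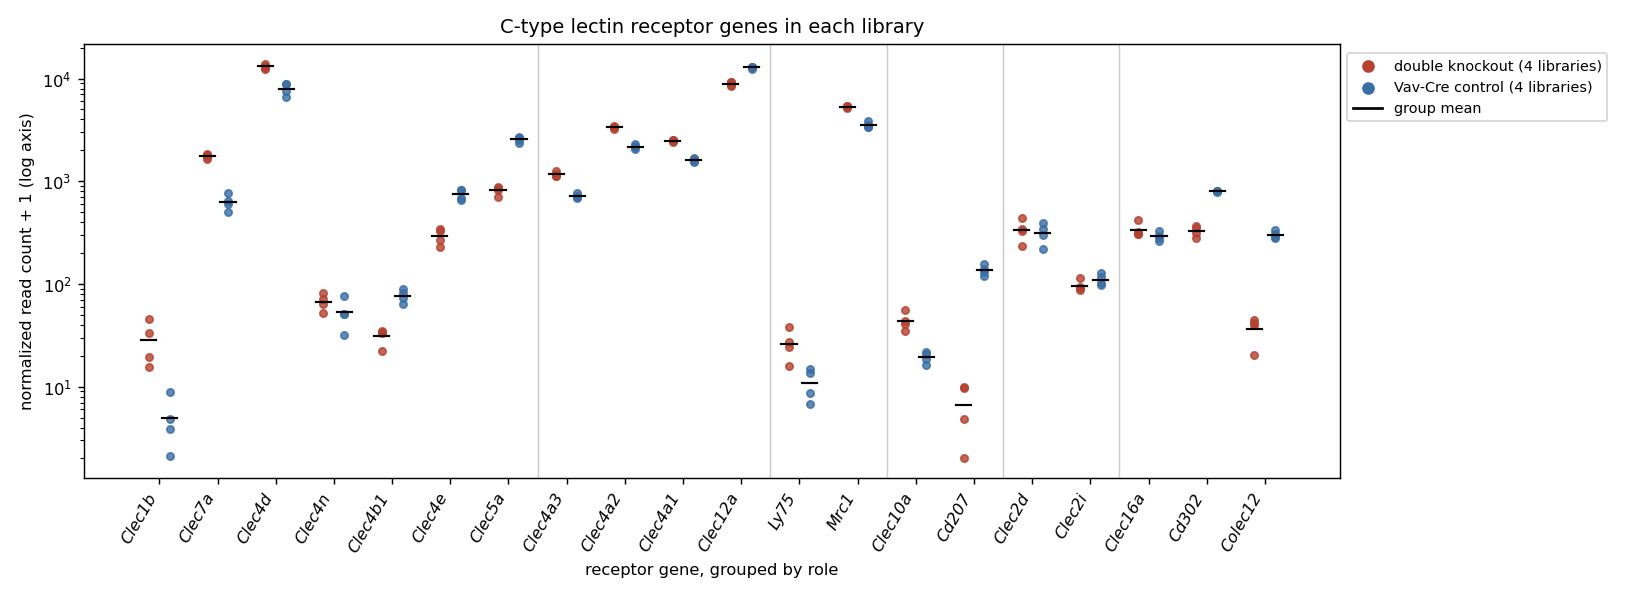
Normalized read count plus 1, on a log axis, of the 20 tested receptor genes in each of the 8 libraries, with double knockouts left of controls and a line at each group mean. Cd207 and Colec12 show the widest gaps with controls above, and 16 of the 20 genes have groups that do not overlap.

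**Figure D2:**
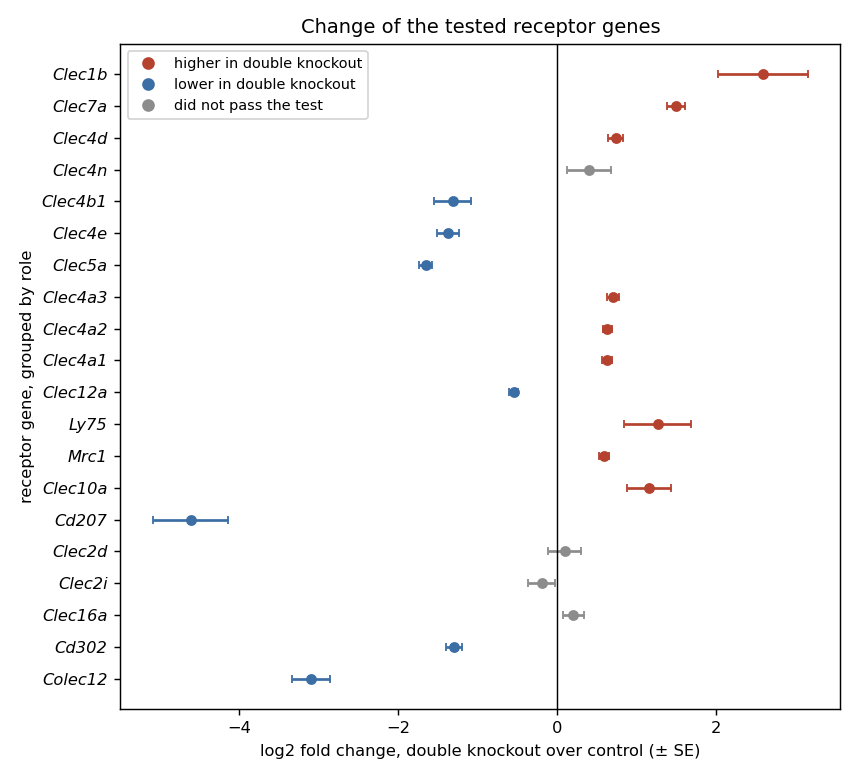
Log2 fold change, double knockout over control, with its SE for the 20 tested receptor genes, grouped by role. The values run from 2.59 for Clec1b to -4.61 for Cd207, and 4 genes did not pass the test.

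Of the activating receptors, 3 of the 7 tested were higher in double knockouts, 3 were lower and 1 did not pass the test. Clec2d was also on the planned list of activating receptors, but it is counted in the Clr family and described there. Clec7a (ENSMUSG00000079293, chromosome 6, 129461591 to 129472779, mm10) encodes dectin-1, which recognises fungal beta-glucan and signals through a tyrosine motif in its own tail. Its normalized read counts were 1803, 1833, 1636 and 1719 in double knockout libraries 1 to 4, against 594, 505, 638 and 776 in control libraries 1 to 4. Every double knockout library lay above every control library. The mean was 1748 ± 89 in double knockouts and 628 ± 113 in controls (SD, n = 4 each), which is 2.81-fold higher (log2 1.49, SE 0.11, adjusted p = 8.2e-07). The annotation classes this gene as a polymorphic pseudogene, meaning that some mouse strains carry a coding copy.

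Clec4d (ENSMUSG00000030144, chromosome 6, 123262111 to 123275265) encodes MCL, a receptor for mycobacterial glycolipid that pairs with Fcer1g. It stood at 12528, 12743, 13954 and 13378 in double knockouts and at 8807, 8823, 7523 and 6644 in controls. All 4 double knockouts lay above all 4 controls. The rise was 1.66-fold, with means of 13151 ± 646 in double knockouts and 7949 ± 1062 in controls (log2 0.73, SE 0.09, adjusted p = 3.96e-05). Clec1b, which encodes the hemITAM receptor CLEC-2 known from platelets, was low throughout. It had 14.6, 32.2, 45 and 18.5 in double knockouts and 7.86, 3.87, 1.11 and 2.89 in controls (log2 2.59, SE 0.56, adjusted p = 0.00281; with a pseudocount of 5, log2 1.82). All double knockouts were above all controls, but the spread within groups was wide. Without double knockouts 2 and 3 the call was lost (limma adjusted p = 0.0661, DESeq2 0.0892), while edgeR kept it (adjusted p = 0.0402). The gene shares 184 exon bases with Clec9a on the same strand, and Clec9a stayed at or below 2.22 in every library. Of 5 platelet markers, Pf4, which macrophages also express, rose to 7901 ± 116 in double knockouts, against 4088 ± 269 in controls (log2 0.95, adjusted p = 1.49e-07). The other 4, Itga2b, Gp9, Gp1bb and Ppbp, summed to 9 to 33.1 in double knockouts and 1.93 to 5.55 in controls and did not pass the filter. Itga2b, Gp9 and Gp1bb were at 0 in every control. The part of platelet-lineage cells in the Clec1b difference was not tested.

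Clec5a (ENSMUSG00000029915, chromosome 6, 40574894 to 40585821) encodes MDL-1, which signals through Tyrobp and is known as a receptor for dengue virus. Double knockouts held 699, 825, 887 and 851 and controls 2537, 2697, 2363 and 2649. The highest double knockout stood far below the lowest control. Means were 816 ± 81.8 in double knockouts and 2561 ± 149 in controls, 3.15-fold lower (log2 -1.65, SE 0.08, adjusted p = 2.39e-08). Clec4e (ENSMUSG00000030142, chromosome 6, 123281789 to 123289870) encodes Mincle, which senses mycobacterial cord factor and dying cells through Fcer1g. Its values were 229, 344, 324 and 268 in double knockouts and 826, 692, 653 and 827 in controls. The groups did not overlap, with means of 291 ± 52.4 in double knockouts and 749 ± 90.4 in controls and a 2.59-fold fall (log2 -1.37, SE 0.14, adjusted p = 8.67e-06). Clec4b1, which encodes the activating receptor DCAR, had 21.4, 32.2, 34 and 33.1 in double knockouts and 88.5, 72.5, 79.9 and 62.7 in controls (log2 -1.31, SE 0.24, adjusted p = 0.000794), also without overlap. Clec4n, which encodes the fungal mannan receptor dectin-2, did not pass the test. It stood at 66.3 ± 12.8 in double knockouts and 51.8 ± 18.3 in controls (log2 0.40, adjusted p = 0.264), and its groups overlapped. Clec4b2 and Clec9a were not tested.

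Ratios within a library do not depend on the scaling between libraries, and gene length affects both genotypes alike. Reads of Clec4d were 37.1 to 54.7 times those of Clec4e in double knockouts and 8.03 to 12.7 times in controls. Clec7a had 1.84 to 2.58 times the reads of Clec5a in double knockouts, but 0.187 to 0.293 times in controls.

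Of the inhibitory and DCIR receptors 4 were tested, with 3 higher and 1 lower in double knockouts. Clec4a2 (ENSMUSG00000030148, chromosome 6, 123106428 to 123143999), the DCIR gene with an inhibitory motif, had 3385, 3471, 3194 and 3401 in double knockouts and 2193, 2282, 2148 and 2070.4 in controls. Means were 3363 ± 118 in double knockouts and 2173 ± 88.1 in controls, 1.55-fold higher (log2 0.63, SE 0.06, adjusted p = 3.7e-06). The related Clec4a1 rose 1.54-fold to 2485 ± 61.5 in double knockouts, against 1609.6 ± 62.5 in controls (log2 0.63, SE 0.06, adjusted p = 4.09e-06). Clec4a3 rose 1.63-fold to 1167 ± 57.3, against 716 ± 35.8 in controls (log2 0.70, SE 0.07, adjusted p = 1.07e-05). Groups did not overlap for any of these 3, and their rises were close in size. They are similar copies of one gene among which reads can be divided, so the value of each alone is uncertain. Clec12a (ENSMUSG00000053063, chromosome 6, 129342691 to 129365303), which encodes the inhibitory receptor MICL that recognises uric acid crystals, went the other way. It held 9169, 9194, 8479.7 and 8581 in double knockouts and 13105, 13071, 12986 and 12498 in controls, without overlap. Means were 8856 ± 378 in double knockouts and 12915 ± 283 in controls, 1.46-fold lower (log2 -0.55, SE 0.05, adjusted p = 6.8e-06). Clec4a4 and Clec12b were not tested.

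In the mannose receptor group both tested genes were higher in double knockouts. Mrc1 (ENSMUSG00000026712, chromosome 2, 14229392 to 14332057) encodes the mannose receptor CD206, which internalises glycoproteins and is a common macrophage marker. It stood at 5402, 5343, 5185 and 5353 in double knockouts and at 3345, 3529, 3410.2 and 3885 in controls. The double knockouts lay close together and all above the controls, with means of 5321 ± 94.2 in double knockouts and 3542 ± 241 in controls (1.5-fold higher, log2 0.59, SE 0.06, adjusted p = 9.29e-06). Ly75, which encodes the endocytic receptor DEC-205 of dendritic cells, was low, at 36.9, 23.1, 15 and 26.3 in double knockouts and 13.8, 12.6, 7.77 and 5.79 in controls (log2 1.27, SE 0.42, adjusted p = 0.0277). Its lowest double knockout was barely above its highest control. The call was lost without double knockout 1, 2 or 4 (adjusted p = 0.0843, 0.0518 and 0.0608) and without control 3 or 4 (0.0634 and 0.0674). Averaging the double knockouts as pairs, 1 with 2 and 3 with 4, also ended it (0.0666). Exons of Ly75 overlap an antisense gene, Gm13571, over 249 bases, and whether reads were counted by strand is not given. Mrc2 was not tested.

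Of the 12 short receptors that bind galactose or mannose, 2 were tested. Cd207 (ENSMUSG00000034783, chromosome 6, 83671215 to 83677857) encodes langerin, the receptor that forms Birbeck granules in Langerhans cells. Double knockouts held 3.88, 1.01, 9 and 8.77 and controls 139.6, 156, 118 and 129. Every control was above 100 and every double knockout under 10. The means were 5.67 ± 3.9 in double knockouts and 136 ± 16.1 in controls, 24.4-fold lower on the log2(value + 1) scale (log2 -4.61, SE 0.47, adjusted p = 9.5e-06). With a pseudocount of 5 in place of 1 the log2 value was -3.80, so the size of the fold rests on the pseudocount. Clec10a (ENSMUSG00000000318, chromosome 11, 70156197 to 70170834), which encodes the galactose-binding MGL1, moved the other way, with 54.4, 42.2, 34 and 40 in double knockouts and 20.6, 17.4, 20 and 15.4 in controls. It was 2.24-fold higher (log2 1.16, SE 0.28, adjusted p = 0.0048), without overlap. Mgl2, its neighbour and the gene of the related MGL2, stayed at or below 2.91 in all libraries. Of the 7 Cd209 genes, the mouse relatives of DC-SIGN, 6 were at 0 in every library, and Cd209c reached at most 7.8. Clec4f of Kupffer cells and Clec4g were also at 0 throughout.

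Markers of other cell types were examined beside these results. Their counts stand against a share of 46.6% called among all tested genes, 22.9% higher and 23.8% lower in double knockouts. Of 16 dendritic cell markers 7 passed the filter, 3 of them higher and 0 lower in double knockouts, and the list summed to 52579 to 56454 in double knockouts and 45432 to 50106 in controls. That sum is mostly Sirpa, Irf8 and Tcf4, which macrophages also express. Itgax, Sirpa and Tcf4 were the 3 higher genes. Itgax had 435 to 497 in double knockouts and 240 to 340 in controls (limma adjusted p = 0.000349). Xcr1 had 30.2 to 51.5 in double knockouts and 41.6 to 59 in controls. H2-Ab1 had 119 to 171 in double knockouts and 85.8 to 122 in controls. Xcr1, H2-Ab1, Irf8 and Cd24a did not pass the test. Batf3 and Kmo missed the filter but reached 26 in a control and 33 in a double knockout. Epcam, which marks Langerhans cells, was at 0 in all 8 libraries, and Flt3, Zbtb46 and Siglech stayed under 10 in every library. Natural killer cell markers Ncr1, Eomes, Gzma and Prf1 were at 0 in all libraries, and none of the 8 passed the filter, with sums of 7 to 18.1 in double knockouts and 9.64 to 13.8 in controls. Of 7 lymphocyte markers 2 passed the filter, and the list summed to 138 to 190.1 in double knockouts and 44.4 to 68.8 in controls. Cd3d and Cd3e were at 0 throughout. Cd8a had 19 to 39 in double knockouts and 12.2 to 46.2 in controls and did not pass the test. Cd4, which is not confined to lymphocytes, rose to 136 ± 17.7 in double knockouts, against 23.9 ± 9.26 in controls (log2 2.53, adjusted p = 1.93e-05). Of 5 endothelial markers 3 passed the filter, 1 of them higher, with sums of 159.8 to 275 in double knockouts and 142 to 261 in controls, and Emcn and Tek were at 0. Of 6 stromal markers 2 passed, 1 of them lower, with sums of 95.5 to 276 in double knockouts and 225 to 323 in controls, and Lum was at 0. None of 5 mast cell or basophil markers passed, with sums of 1.95 to 13 in double knockouts and 3.33 to 44.4 in controls. The part of these cell types in the receptor differences was not tested.

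The remaining members include scavenging and atypical receptors. Colec12 (ENSMUSG00000036103, chromosome 18, 9707595 to 9882644) encodes a collectin scavenger receptor that takes up oxidised lipoprotein and microbes. Its values were 19.4, 43.2, 39 and 40.9 in double knockouts and 285, 277, 332 and 308 in controls, far apart. Means were 35.6 ± 11 in double knockouts and 300.5 ± 24.5 in controls, 8.57-fold lower (log2 -3.10, SE 0.24, adjusted p = 8.5e-07). Cd302 (ENSMUSG00000060703, chromosome 2, 60251993 to 60284488), a lectin receptor linked to phagocytosis and cell movement, had 277, 347, 366 and 313 in double knockouts and 788, 802, 806 and 801 in controls. Control libraries agreed closely, and all double knockouts lay below them (326 ± 39.4 in double knockouts and 799 ± 7.7 in controls, 2.46-fold lower, log2 -1.30, SE 0.10, adjusted p = 8.13e-07).

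The 4 tested members that did not pass the test include Clec4n. Clec2d and Clec2i belong to the Clr family, ligands of receptors on natural killer cells. Clec2d stood at 335 ± 86.1 in double knockouts and 313 ± 72 in controls (log2 0.09, adjusted p = 0.743) and Clec2i at 95.6 ± 12.1 in double knockouts and 109.5 ± 13.8 in controls (log2 -0.19, adjusted p = 0.37). Clec16a, which despite its name acts in the endosomal and mitochondrial clearance pathways and not as a sugar receptor, stood at 335 ± 53.5 in double knockouts and 289 ± 29.8 in controls (log2 0.21, adjusted p = 0.216). The groups overlapped for all 4.

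Receptor genes near each other differed in both directions, as did genes over the whole table. Of all tested genes 46.6% passed the test, 22.9% higher and 23.8% lower in double knockouts. The Clec4 cluster spans 368 kb of chromosome 6 (122921848 to 123289870, mm10) with 9 member genes, of which 7 were tested, 4 higher and 2 lower in double knockouts. Clec4d and Clec4e are separated by 6.52 kb and differed in opposite directions, at log2 0.73 and -1.37. Clec4n, 15.1 kb from Clec4d on its other side, was at log2 0.40 and did not pass the test. Clec4a1, Clec4a3 and Clec4a2 of the same cluster were all higher. The Clec2 and dectin-1 cluster spans 820.4 kb (128652416 to 129472779) with 14 member genes, of which 5 were tested, 2 higher and 1 lower. There Clec12a and Clec7a lie 96.3 kb apart, at log2 -0.55 and 1.49, with Clec1b (log2 2.59) among the members between them. On chromosome 2, Cd302 and Ly75 are adjacent, 7.62 kb apart and in the same orientation, at log2 -1.30 and 1.27. The call on Ly75 was lost under the alternatives given above. None of the 10 members on chromosome 8, which holds the Cd209 genes, was tested.

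**Figure D3:**
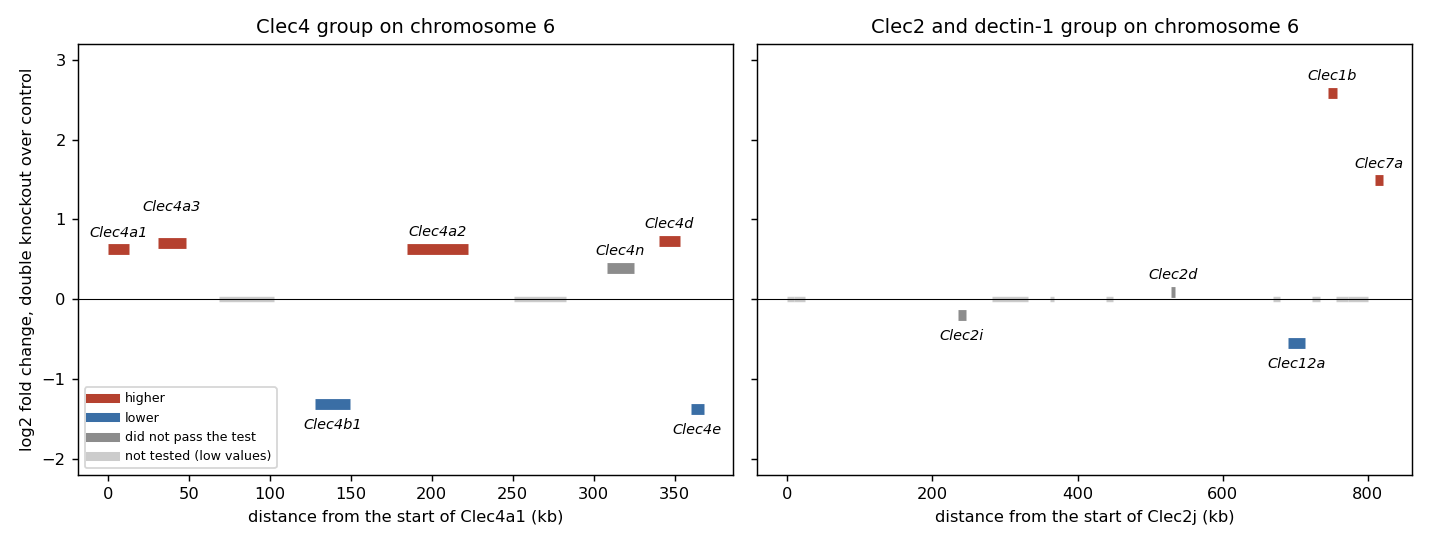
Log2 fold change, double knockout over control, of receptor genes against distance in kb along the Clec4 cluster (left) and the Clec2 and dectin-1 cluster (right) of chromosome 6, with bar length showing gene length and pale bars at 0 for genes that were not tested. Clec4d at 0.73 and Clec4e at -1.37 stand next to each other at the end of the Clec4 cluster.

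Levels of different genes were compared as normalized reads per kilobase of merged exons. Clec4d was the highest receptor in both groups, at 8224 ± 404 in double knockouts and 4971 ± 664 in controls. Clec12a followed at 1602 ± 68.4 in double knockouts and 2336 ± 51.1 in controls. In double knockouts Clec12a did not stand apart from Clec4a1, which had 1595 ± 39.5 in double knockouts and 1033 ± 40.1 in controls. Clec4a2 came next in both groups with 1149 ± 40.5 in double knockouts and 743 ± 30.1 in controls. Clec4a3 had 879.6 ± 43.2 in double knockouts and 539.7 ± 26.9 in controls, next in order in double knockouts, whereas in controls Clec5a, Cd302 and Mrc1 stood between it and Clec4a2. Mrc1 had 835 ± 14.8 in double knockouts and 556 ± 37.8 in controls, which in controls lay within the SD of Clec4a3 and in double knockouts just below it. Clec7a reached 663 ± 33.8 in double knockouts and 238 ± 42.9 in controls, while Clec5a had 212 ± 21.3 in double knockouts and 667 ± 38.7 in controls and Cd302 240.5 ± 29.1 in double knockouts and 590.4 ± 5.69 in controls. In controls Clec5a and Cd302 thus lay above Clec7a, and in double knockouts below it.

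Clec4d, Clec12a and Mrc1 together made up 70.3 to 71.5% of all receptor reads in double knockouts and 68.2 to 70.6% in controls. These shares are of reads, without correction for gene length. Clec4d held 32.7 to 36.1% and Clec12a 21.9 to 23.9% in double knockouts. In controls Clec4d held 19.7 to 24.5% and Clec12a 36.3 to 38%. Mrc1 took 13.4 to 14.1% in double knockouts and 9.3 to 11.5% in controls. Shares sum to 100 within a library, so they are not independent of each other.

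**Figure D4:**
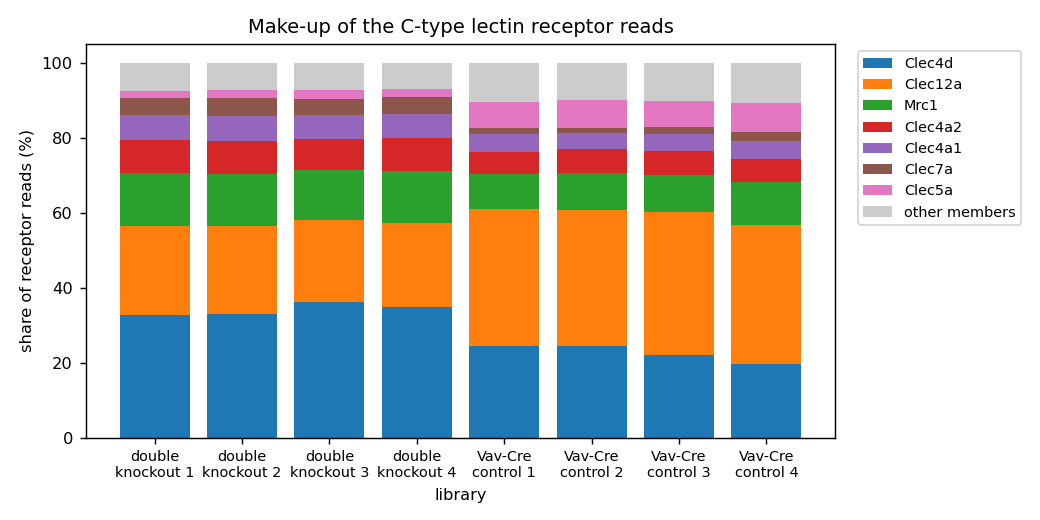
Share of all C-type lectin receptor reads, in percent, taken by 7 receptor genes and by the other members in each library. Without correction for gene length, Clec4d takes the largest part in the 4 double knockouts (32.7 to 36.1%) and Clec12a in the 4 controls (36.3 to 38%).

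Adaptors and signalling genes below these receptors were read from the same fit. Of 26 genes of the Syk pathway, all tested, 9 were higher in double knockouts, 4 were lower and 13 did not pass the test, with a median log2 fold change of 0.07. The share called, 50%, is near the 46.6% of all tested genes. Without double knockouts 2 and 3, limma and edgeR each called 6 higher and 2 lower. Syk itself, the central kinase, had 4152 ± 29.7 in double knockouts and 3326 ± 219 in controls (log2 0.32, SE 0.06, adjusted p = 0.00102). Tyrobp, the DAP12 adaptor used by Clec5a, was higher at 15164 ± 169 in double knockouts and 12520.0 ± 1558 in controls (log2 0.29, adjusted p = 0.0142), while Clec5a was lower. Fcer1g, the adaptor of Clec4d, Clec4e and Clec4n, did not pass the test, at 23221 ± 1568 in double knockouts and 20755 ± 2345 in controls (log2 0.17, adjusted p = 0.124). Neither did Card9, the scaffold below Syk, at 461 ± 36.1 in double knockouts and 505 ± 80.6 in controls (log2 -0.12, adjusted p = 0.425). Plcg2, the phospholipase activated by Syk, fell to 2142 ± 91.2 in double knockouts, against 3388 ± 437 in controls (log2 -0.65, adjusted p = 9.98e-05). Src, a tyrosine kinase, rose to 338 ± 36 in double knockouts, against 174 ± 33 in controls (log2 0.97, adjusted p = 0.000284). Hcst, which encodes the adaptor DAP10, rose to 374 ± 65.1, against 229 ± 18.8 (log2 0.70, adjusted p = 0.00123). The NF-kB subunit genes split: Rela was higher at 2151 ± 145 in double knockouts and 1559.7 ± 109.9 in controls (log2 0.46, adjusted p = 0.000313), and Nfkb1 was lower at 2249 ± 121 in double knockouts and 3101 ± 137 in controls (log2 -0.46, adjusted p = 8.86e-05).

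Of 11 phosphatases and other brakes, 1 was higher, 3 were lower and 7 did not pass the test, with a median of 0.04. The share called was 36.4%, against 46.6% of all tested genes. Ptpn6, the phosphatase SHP-1 recruited by inhibitory receptors, stood at 4654 ± 182 in double knockouts and 5478 ± 273 in controls (log2 -0.23, adjusted p = 0.00613). Dok2, an adaptor that restrains kinase signalling, fell to 909 ± 30.9 in double knockouts, against 1756 ± 117 in controls (log2 -0.95, adjusted p = 6.07e-07). Cblb, a ubiquitin ligase that targets activated receptors, rose to 841 ± 59.6, against 512 ± 53.4 (log2 0.72, adjusted p = 9.24e-05). Ubash3b, a phosphatase of Syk, fell to 1547 ± 152, against 2009 ± 314 (log2 -0.37, adjusted p = 0.0154), with overlapping groups.

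Mrc1, Clec10a and Mgl2 are commonly read with genes of alternative activation, a state induced by interleukin 4. Of 16 such genes 9 passed the filter, with 1 higher, 4 lower and 4 not passing the test in double knockouts (median -0.33). The share called of those tested was 55.6%, against 46.6% of all tested genes. Il4ra, a chain of the interleukin 4 receptor, was higher at 4416 ± 204 in double knockouts and 3238 ± 307 in controls (log2 0.45, adjusted p = 0.000443). Chil3, a chitinase-like protein that is also a monocyte marker, fell to 107 ± 13.9 in double knockouts, against 652 ± 174 in controls (log2 -2.57, adjusted p = 3.8e-07). Fn1, the gene of fibronectin and likewise a monocyte marker, fell to 48.8 ± 19.8, against 387 ± 163 (log2 -2.99, adjusted p = 2.92e-05). The transcription factor genes Klf4 and Pparg were lower too (log2 -1.68, adjusted p = 2.36e-05 and log2 -0.52, adjusted p = 0.00307). Stat6, which transmits the signal of interleukin 4, stood at 4781 ± 313 in double knockouts and 4729 ± 264 in controls (log2 0.02, adjusted p = 0.871). Retnla and Ccl17 were at 0 in every library, and Arg1, Ccl22, Ccl24, Irf4 and Pdcd1lg2 did not pass the filter.

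Members that were not tested number 28. Of these, 14 were at 0 in all 8 libraries: Cd209a, Cd209b, Cd209d, Cd209e, Cd209f, Cd209g, Clec14a, Clec18a, Clec2j, Clec2l, Clec2m, Clec3a, Clec4f and Clec4g. The other 14 had reads in some library but at most 16.4: Cd209c, Clec11a, Clec12b, Clec1a, Clec2e, Clec2f, Clec2g, Clec2h, Clec3b, Clec4a4, Clec4b2, Clec9a, Mgl2 and Mrc2. In the shallowest library with recovered reads, a count of 0 allows a level of up to 0.168 RPM (3 reads of the total, for counting error alone), so the genes at 0 were not detectable at this depth, which does not show that they are absent.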

How the data were processed

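Poly(A) RNA libraries (Roche Kapa chemistry) were sequenced as paired reads of 150 bases, per the labels' protocols. The submitters' processing notes name Salmon 1.4.0, DESeq2 and mm10. The annotation, any filter and the strand setting were not given in the sources used here. The deposited values are a signal: reads per gene, divided by the authors by 1 size factor per library. Whole reads were recovered for 6 libraries (100% of values whole within 0.01; 17856715 to 21353207 reads). For double knockouts 2 and 3 the size factor is too near 1 for the recovery check, so count tests leave them out.

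Titles define the groups, with 4 libraries each. Nothing says that replicates are separate mice or cultures, and p-values then reflect only the variation among these libraries, which may be technical. Double knockouts 1 and 2, and 3 and 4, were close pairs (chi-square per gene 7.95 and 8.98, against 19.6 to 27.2 across pairs and 9.78 to 38.2 among controls).

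The 11675 genes reaching 10 in 4 or more libraries were fitted on log2(value + 1) by limma 3.58.1 (R 4.3.3; trend, robust, genotype only, two-sided), adjusted by Benjamini-Hochberg over all of them. Such fold changes understate the differences of low genes. Errors are SD over libraries. Alternatives on 6 libraries used edgeR 4.0.16 and DESeq2 1.42.0. GENCODE M21 (mm10) gave positions for all 48 members, 1 of which, Clec2m, has another symbol there. Promoters came from RefSeq (GRCm38.p6) for 17 of the 20 tested receptors, all but Clec10a, Clec4n and Colec12.

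The members and lists were chosen with earlier results of these data known. By rule, per-library values were given for receptors past the test with at least a 2-fold change and a mean of at least 20, and up to 6 called genes of smallest adjusted p were named per signalling list. Per-library values of Clec4d, Clec1b, Clec4a2, Clec12a, Mrc1 and Ly75, the values of Tyrobp, Fcer1g, Card9 and Stat6, and the choice of promoters and motifs were added after values were seen.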

Additional observations from a re-analysis of the deposited data

Results flagged for a closer look

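In 5 of 74 groups of 4 libraries examined for the receptors, the targeted genes and the named signalling genes, 1 library lay farther from the rest than Dixon's test allows at the 95% level. Chance flags about 1 group in 20. Clec16a stood at 415, against 305 to 317 in the other 3 double knockouts, in double knockout 4. Clec4b1 stood at 21.4, against 32.2 to 34 in the other 3 double knockouts, in double knockout 1. Syk stood at 4196, against 4133 to 4142 in the other 3 double knockouts, in double knockout 1. Nfkb1 stood at 2897, against 3146 to 3191 in the other 3 controls, in control 4. Fn1 stood at 628, against 267 to 327 in the other 3 controls, in control 2.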

How the results depend on the processing

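Of 397 refits of single receptors under 20 alternatives, 387 kept their direction and their side of the threshold. The 8 lost calls were those of Ly75 and Clec1b given above. The 2 reversals were of Clec2d, which passed no test: its log2 fold change was -0.05 without double knockout 1 and -0.065 without control 4, in a range of -0.065 to 0.26 with each library left out in turn. Called receptors numbered 15 to 16 with each library left out in turn, and 13 of 17 under the stricter filter of 50, which removes Clec10a, Ly75 and Clec1b. Over all genes, 4669 to 5333 were called with a library left out, against 5444. Fewer were called with the double knockout pairs averaged (4132 genes, 15 receptors). On 6 libraries limma called 4030 genes, edgeR 3946 and DESeq2 4263. The replicate block, using the numbers in the titles, called 16 receptors and 4649 genes. Deviations of same-numbered libraries correlated at -0.053 to 0.032, and those of differently numbered ones at -0.19 to 0.15. These values gave no sign of pairing by number, but they cannot exclude it. The Syk pathway count was 13, and 9 with the double knockout pairs averaged. On 6 libraries it was 8 in limma, 8 in edgeR and 10 in DESeq2.

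The call on Cdk8 was lost in 14 of 20 alternatives. Its log2 fold change was -0.35 (adjusted p = 0.055) with no filter, -0.27 (adjusted p = 0.0867) under quantile normalization, -0.35 (adjusted p = 0.0501) without trend and robust options, -0.34 (adjusted p = 0.0519) with the double knockout pairs averaged and -0.35 (adjusted p = 0.0517) with the replicate block. On 6 libraries it was -0.30 (adjusted p = 0.177) in limma, -0.29 (adjusted p = 0.206) in edgeR and -0.28 (adjusted p = 0.239) in DESeq2. Leaving out a library gave -0.46 to -0.28. The cause was not tested. Count tests on all 8 libraries were planned but not run, and those on 6 libraries were chosen after the data were seen. With 4 libraries a group, low receptors such as Ly75 and Clec1b are the least certain.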
